A study of Homo sapiens with 60 samples.

Results

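GDF15, ADM2, FGF21, STC2, BDNF and BMP2, 6 genes that encode secreted peptides and hormones, were followed in HT29 cells treated with herbal extracts. They were taken by symbol from a table of 60675 gene IDs. Of the 6 genes, GDF15, ADM2, BDNF and BMP2 passed the filter on low counts and were tested among 16022 genes, while FGF21 and STC2 did not pass and are described by their counts. HT29 is an established human colorectal adenocarcinoma line. Cells were treated for 24 h with 70% ethanol extracts of 6 single herbs or 2 formulas, each at 3 doses, or with DMSO vehicle, which the sample labels give as 0.1% and the series design as 2%. The low, medium and high doses were 20, 100 and 500 µg/mL for Zizyphi Fructus, Citri Unshius Pericarpium, Cimicifugae Rhizoma, Aconiti Lateralis Radix Preparata, Yijung-tang and Banhasasim-tang. Bupleuri Radix was given at 12.4, 62 and 310 µg/mL, and the doses of Coptidis Rhizoma were 12.8, 64 and 320 µg/mL, since the design replaces 500 µg/mL by the IC20 where that is lower. Bupleuri Radix, Aconiti Lateralis Radix Preparata, Cimicifugae Rhizoma and Citri Unshius Pericarpium had 3 libraries per dose, while Yijung-tang, Coptidis Rhizoma and Zizyphi Fructus had 2. Banhasasim-tang had 1 library per dose, and vehicle had 3 libraries. Nothing in the labels says that libraries of a group came from separate cultures, so p-values measure the spread between these libraries, which may be technical.

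GDF15 is a distant member of the TGF-beta family that is released by many stressed cells and acts in the brainstem through the receptor GFRAL with its partner RET. ADM2, also called intermedin, is a peptide of the calcitonin family that signals through CALCRL with a RAMP partner, and FGF21 is a metabolic hormone that needs the co-receptor KLB beside an FGF receptor. STC2 is a secreted glycoprotein that inhibits the protease PAPPA. GDF15, ADM2, FGF21 and STC2 are known as genes that the stress-response transcription factors ATF4 and CHOP can induce. BDNF is a neurotrophin that acts on NTRK2, and BMP2 is a ligand of the bone morphogenetic protein receptors, which restrain stem cell growth in the gut epithelium.

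The 60 libraries held 18.1 to 36.7 M counts, with a median of 24.1 M, so that 3 counts, taken as the floor of detection, stood for 0.0817 to 0.166 CPM, the count scaled to library size. The summed level of 10 colorectal epithelial markers was 8870 to 13949 CPM. Most of it came from KRT8 and KRT18, with medians of 5553 and 3434 CPM against 10921 CPM for the sum. CDX1, CDX2 and CEACAM5 were low, at 0.225 to 1.70, 3.93 to 9.87 and 1.08 to 19.2 CPM. Markers of fibroblasts, leukocytes, endothelium and hepatocytes summed to at most 4.01, 4.71, 2.52 and 0.778 CPM in any library, and of these lists MS4A1 was at 0 in all 60 libraries. One library, replicate 3 of the medium dose of Zizyphi Fructus, stood apart from the rest. Mitochondrial genes took 41.8% of its counts, against 3.66 to 15.5% in the other 59 libraries. All groups share 1 estimate of the spread for each gene, and the standard error of the high against low change of GDF15 in Coptidis Rhizoma was 0.19 with that library and 0.08 without it. Calls of members that change without it are given both ways.

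In vehicle cells the tested genes spanned a wide range of levels. Per kilobase of exon, the vehicle mean was 19.5 CPM for GDF15 and 3.27 CPM for BMP2. It was 0.432 CPM per kilobase for BDNF and 0.388 for ADM2, while FGF21 and STC2 had no counts in vehicle cells. By GENCODE 29 on GRCh38, GDF15 lies on chromosome 19 from 18374731 to 18389176 and FGF21 on the same chromosome from 48755559 to 48758333. ADM2 lies on chromosome 22 from 50481556 to 50486440 and BMP2 on chromosome 20 from 6767664 to 6780280, all on the plus strand. BDNF, on chromosome 11 from 27654893 to 27722058, and STC2, on chromosome 5 from 173314713 to 173329503, lie on the minus strand. BDNF overlaps the antisense gene BDNF-AS, which had 0.118 to 1.54 CPM across the libraries.

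GDF15, ADM2 and FGF21 were the members with higher levels at the high dose of Coptidis Rhizoma, so the 250 bases upstream of 1 start site of each are shown. The windows used for GDF15 and STC2 lie inside the gene spans given above, so the regions before those spans were not searched. The sequences are from RefSeq on GRCh38.p14, from the plus strand, 5′ to 3′. Capitals mark a match to TGATGNAA on either strand, the core of the composite element bound by C/EBP and ATF factors.
GDF15 promoter (chr19:18385908-18386157): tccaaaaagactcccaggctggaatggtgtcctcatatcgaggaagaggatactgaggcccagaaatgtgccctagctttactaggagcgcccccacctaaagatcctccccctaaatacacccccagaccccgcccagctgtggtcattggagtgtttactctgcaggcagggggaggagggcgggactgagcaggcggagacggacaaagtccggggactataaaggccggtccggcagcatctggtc
ADM2 promoter (chr22:50481293-50481542): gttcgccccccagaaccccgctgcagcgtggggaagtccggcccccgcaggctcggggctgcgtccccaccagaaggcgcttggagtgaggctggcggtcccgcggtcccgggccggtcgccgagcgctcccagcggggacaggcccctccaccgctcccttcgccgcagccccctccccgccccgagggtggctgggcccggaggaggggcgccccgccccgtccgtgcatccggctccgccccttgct
FGF21 promoter (chr19:48755274-48755523): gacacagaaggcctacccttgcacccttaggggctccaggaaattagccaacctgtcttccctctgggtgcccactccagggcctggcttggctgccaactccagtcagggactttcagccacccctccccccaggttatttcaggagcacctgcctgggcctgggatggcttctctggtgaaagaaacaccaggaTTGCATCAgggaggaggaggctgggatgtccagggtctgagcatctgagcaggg
The FGF21 window held 1 match, on the minus strand, at 54 to 47 bases before the start. The GDF15 and ADM2 windows held none, nor did the STC2 window and the 5 BDNF windows, and BMP2 was not among the promoters used. Among all 35116 promoter windows of that length, 1104 or 3.14% held TGATGNAA. The full cAMP response element TGACGTCA was held by 1.65% of all windows and by none of the members' windows.

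GDF15 was the most abundant of the 6 genes, and it rose at the high doses of Coptidis Rhizoma and Bupleuri Radix. With Coptidis Rhizoma it had 282 and 287 CPM at the high dose, against 43.3 and 40.3 CPM at the low dose. Both high-dose libraries stood far above all other libraries analysed. The log2 change was 2.77 ± 0.19 (SE, adjusted p = 4.1e-16, n = 2 each), a 6.80-fold rise, in edgeR's quasi-likelihood test with Benjamini-Hochberg adjustment over all tested genes. With Bupleuri Radix it had 127, 107 and 118 CPM at the high dose, against 43.5, 42.9 and 45.8 CPM at the low dose. These groups did not overlap either, and the log2 change was 1.41 ± 0.15 (SE, adjusted p = 2.1e-09, n = 3 each). In bulk RNA such as this, a change in every cell and a change in a share of the cells cannot be told apart.

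The steps between doses were uneven for GDF15. Its mean with Coptidis Rhizoma was 41.8 CPM at the low, 54.6 CPM at the medium and 284.5 CPM at the high dose, and with Bupleuri Radix it was 44.0, 46.1 and 117 CPM. Most of the difference therefore lay between medium and high dose. The medium against low change with Coptidis Rhizoma was 0.39 ± 0.19 (SE, adjusted p = 0.53), and without the Zizyphi Fructus library that stood apart it was 0.39 ± 0.08 (SE, adjusted p = 0.0013).

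Smaller differences of GDF15 did not pass with that 1 library in the fit and passed without it. Its value there was 11.2 CPM, against 39.6 CPM in the other library of the same group. Banhasasim-tang had 48.2, 57.9 and 72.2 CPM at the low, medium and high dose, an ordered series of single libraries with a high against low log2 change of 0.58 ± 0.26 (SE, adjusted p = 0.45). Cimicifugae Rhizoma had 56.2, 53.8 and 52.5 CPM at the high dose, against 43.0, 40.9 and 44.7 CPM at the low dose, a log2 change of 0.34 ± 0.15 (SE, adjusted p = 0.58). Citri Unshius Pericarpium went the other way, with 33.5, 30.0 and 34.4 CPM at the high dose, against 40.6, 40.9 and 42.6 CPM at the low dose, a log2 change of -0.34 ± 0.15 (SE, adjusted p = 0.69). The groups of these last extracts did not overlap in either case. Without the Zizyphi Fructus library all of these passed, with adjusted p of 0.00050 for Banhasasim-tang, 0.0010 for Cimicifugae Rhizoma and 0.0041 for Citri Unshius Pericarpium. With that library kept, all 3 also passed with no filter on low counts, and Cimicifugae Rhizoma and Citri Unshius Pericarpium passed with the compared groups fitted alone. The same library carried the only other GDF15 call, -0.65 ± 0.20 (SE, adjusted p = 0.012) for medium against low Zizyphi Fructus, which was lost without it and without either low-dose library of that extract.

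ADM2 had the largest change of the tested members in Coptidis Rhizoma and in Banhasasim-tang, and it also passed at the medium dose of Coptidis Rhizoma. With Coptidis Rhizoma it had 4.40 and 4.42 CPM at the low, 13.3 and 13.9 CPM at the medium and 46.8 and 49.7 CPM at the high dose. The doses did not overlap, and all 6 libraries lay above the vehicle libraries, which had 1.82, 1.74 and 1.42 CPM. The high against low log2 change was 3.45 ± 0.16 (SE, adjusted p = 7.6e-22) and the medium against low change 1.62 ± 0.16 (SE, adjusted p = 1.1e-09, n = 2 each).

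ADM2 also rose with Banhasasim-tang and Bupleuri Radix. The single Banhasasim-tang libraries had 2.28, 2.47 and 10.5 CPM at the low, medium and high dose, so that the high-dose library stood alone. Its log2 change against low was 2.21 ± 0.24 (SE, adjusted p = 3.4e-08, n = 1 each), where a single library is assumed to vary like those of other groups. Bupleuri Radix had 3.83, 3.43 and 4.26 CPM at the high dose, against 1.99, 2.07 and 1.98 CPM at the low dose, without overlap. That gave a log2 change of 0.93 ± 0.16 (SE, adjusted p = 2.4e-05, n = 3 each). In the other 5 extracts the high against low change of ADM2 lay between -0.45 and 0.41 on the log2 scale, with adjusted p of 0.25 or more.

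**Figure D1:**
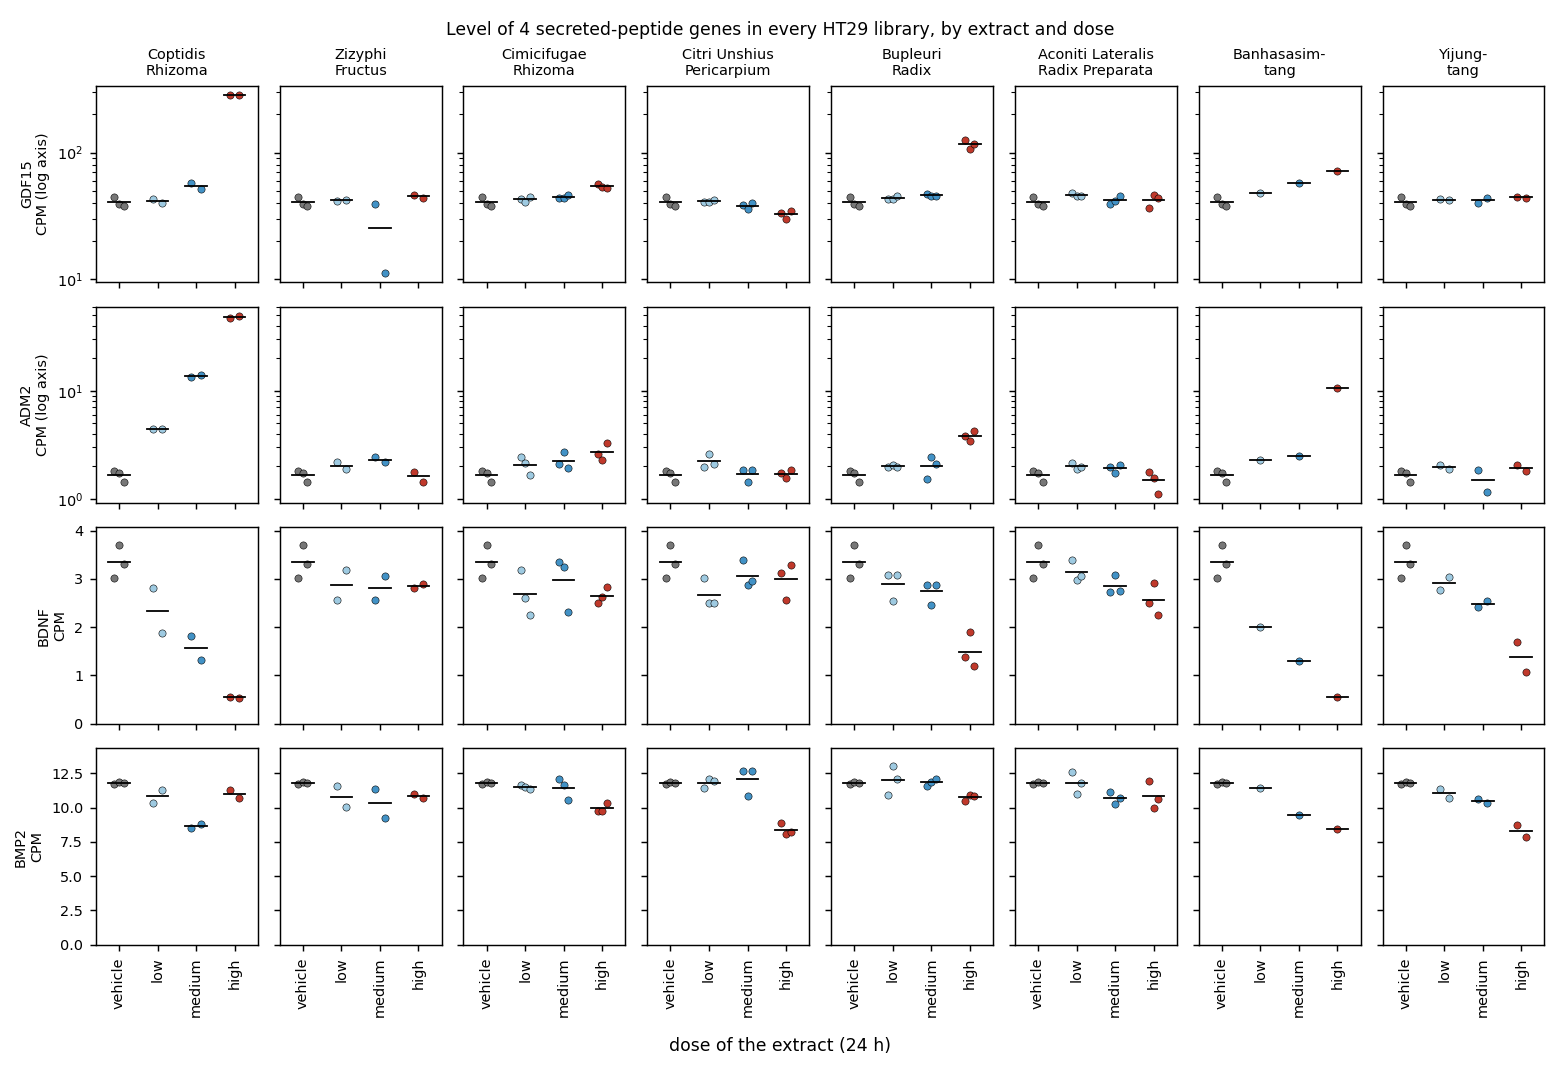
CPM of GDF15, ADM2 (both on a log axis), BDNF and BMP2 in every library, in 1 column of panels per extract, with vehicle, low, medium and high dose from left to right; the same 3 vehicle libraries are drawn in each column, points are libraries and bars are group means. GDF15 reaches 282 and 287 CPM and ADM2 46.8 and 49.7 CPM at the high dose of Coptidis Rhizoma, and 1 Zizyphi Fructus medium library lies low for GDF15 at 11.2 CPM.

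FGF21 was at or near the floor of detection in all but a few libraries, and its counts gathered at the high dose of Coptidis Rhizoma. Those 2 libraries held 21 and 38 FGF21 counts, the medium dose held 3 and 2, and the low dose and vehicle libraries held 0. Pooled over the high-dose libraries that was 1.19 CPM (exact Poisson 95% interval 0.909 to 1.54, counting error only). That was 20.4-fold a floor of 3 counts over the low-dose group and 34.9-fold the same floor over the vehicle group. The exact Poisson 95% upper limits of those groups lay above these floors, at 0.0719 and 0.0421 CPM. The high-dose library of Banhasasim-tang held 5 counts, and each remaining library held at most 2, for a total of 84 counts in 19 of 60 libraries.

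FGF21 did not enter the main test. In edgeR without the filter on low counts, the adjusted p of high against low Coptidis Rhizoma was 5.2e-07, and it was 2.3e-10 against vehicle. The same fit gave an adjusted p of 0.95 for high against low Banhasasim-tang and of 0.049 against vehicle. STC2, the other untested member, had 4 counts in all, 1 in each of 4 libraries, so no difference was detectable at this depth. For 0 counts over the 3 vehicle libraries, the exact Poisson 95% upper limit was 0.0421 CPM for either gene.

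**Figure D2:**
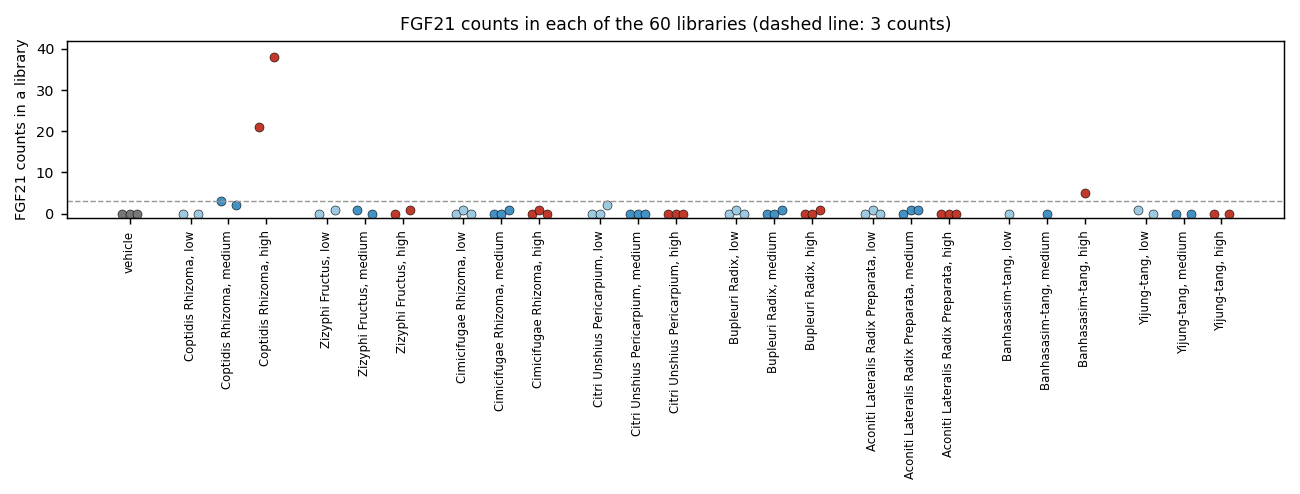
FGF21 counts (vertical axis) in each of the 60 libraries, grouped on the horizontal axis by vehicle and by extract and dose from low to high; each point is 1 library and the dashed line marks 3 counts. The high-dose Coptidis Rhizoma libraries stand at 21 and 38 counts, the Banhasasim-tang high-dose library at 5, and no other library exceeds 3.

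BDNF was lower at the high dose of 4 extracts, among them the 3 in which ADM2 rose. With Coptidis Rhizoma it had 2.80 and 1.88 CPM at the low, 1.82 and 1.31 CPM at the medium and 0.563 and 0.542 CPM at the high dose. The high-dose libraries lay below all others of that extract, with a log2 change against low of -2.06 ± 0.26 (SE, adjusted p = 7.1e-09, n = 2 each). The Banhasasim-tang libraries had 1.99, 1.31 and 0.550 CPM at the low, medium and high dose, an ordered series of single libraries. Their high against low change was -1.85 ± 0.37 (SE, adjusted p = 0.0021, n = 1 each), with 14 counts behind the high-dose value.

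BDNF fell with Bupleuri Radix and Yijung-tang as well. Bupleuri Radix had 1.38, 1.90 and 1.19 CPM at the high dose, against 3.08, 2.54 and 3.09 CPM at the low dose, a log2 change of -0.97 ± 0.18 (SE, adjusted p = 7.6e-05). Yijung-tang had 1.68 and 1.08 CPM at the high dose, against 2.78 and 3.04 CPM at the low dose, a log2 change of -1.08 ± 0.22 (SE, adjusted p = 0.014). Neither pair of groups overlapped, but the Yijung-tang call was lost without its high replicate 2 and without either of its low replicates, with adjusted p of up to 0.71. Levels of BDNF were low, and the vehicle libraries held 3.03, 3.69 and 3.31 CPM, the highest group mean of all.

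The antisense gene BDNF-AS had 1.43 CPM at the high and 0.396 CPM at the low dose of Coptidis Rhizoma, a log2 change of 1.84 ± 0.38 (SE, adjusted p = 6.3e-05). BDNF and BDNF-AS thus moved in opposite directions there, but not in every extract. Against vehicle, the log2 change of BDNF-AS at the high dose was 1.33 ± 0.31 in Coptidis Rhizoma (SE). It was -1.03 ± 0.36 in Bupleuri Radix and -2.20 ± 0.64 in Banhasasim-tang, where BDNF was lower than vehicle as well. In Cimicifugae Rhizoma, where BDNF was not called, it was -1.12 ± 0.38. In Banhasasim-tang BDNF-AS had 3 counts at the high and 9 at the low dose (adjusted p = 0.63). The kit marks strand, but whether the counting used it was not given in the sources used here, so reads of these overlapping genes may be shared.

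BMP2 fell at the high doses of Citri Unshius Pericarpium and Yijung-tang. Citri Unshius Pericarpium had 8.85, 8.07 and 8.24 CPM at the high dose, against 11.4, 12.1 and 12.0 CPM at the low dose. These groups did not overlap, and the log2 change was -0.50 ± 0.07 (SE, adjusted p = 0.00017, n = 3 each), with an adjusted p of 0.17 when libraries were scaled by their total counts. Yijung-tang had 8.76 and 7.86 CPM at the high dose, against 11.3 and 10.7 CPM at the low dose, a log2 change of -0.41 ± 0.09 (SE, adjusted p = 0.039, n = 2 each). That call was lost without any 1 of its 4 libraries (adjusted p up to 0.71), with total counts and with no filter. The single Banhasasim-tang libraries had 11.4, 9.48 and 8.45 CPM at the low, medium and high dose, and the high against low change was -0.43 ± 0.13 (SE, adjusted p = 0.081), or -0.44 ± 0.12 (SE, adjusted p = 0.028) without the Zizyphi Fructus library.

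With Coptidis Rhizoma BMP2 did not follow the dose. It had 10.3 and 11.3 CPM at the low, 8.51 and 8.79 CPM at the medium and 11.3 and 10.7 CPM at the high dose. The high and low groups overlapped, with a log2 change of 0.03 ± 0.09 (SE, adjusted p = 0.84), whereas the medium dose lay below both. The medium against low change was -0.32 ± 0.09 (SE, adjusted p = 0.069), or -0.32 ± 0.09 (SE, adjusted p = 0.025) without the Zizyphi Fructus library. Ranked by mean, the lowest BMP2 levels were those of high-dose Yijung-tang at 8.31 CPM, Citri Unshius Pericarpium at 8.39 CPM and Banhasasim-tang at 8.45 CPM, and each of these overlapped with its neighbour in the order.

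**Figure D3:**
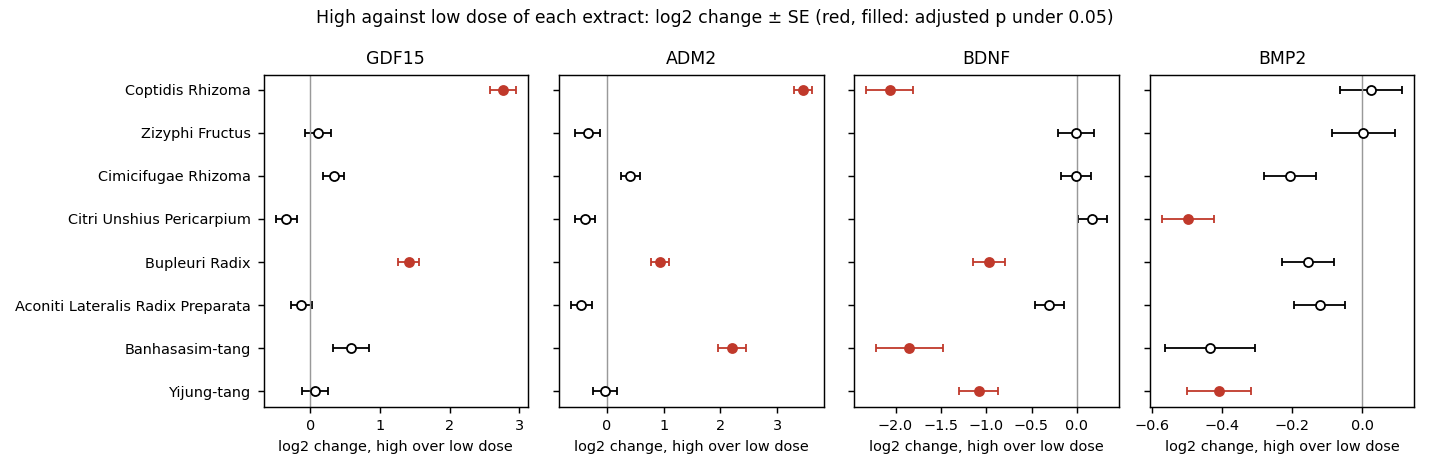
Log2 change from the edgeR fit of GDF15, ADM2, BDNF and BMP2 at the high over the low dose (horizontal axis, a scale for each gene) for each of 8 extracts (from top to bottom); bars are ± SE and red filled points have an adjusted p under 0.05. GDF15 and ADM2 lie right of 0 and BDNF left of it for Coptidis Rhizoma and Bupleuri Radix, while BMP2 lies left of 0 for Citri Unshius Pericarpium and Yijung-tang.

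By extract, 11 of 32 tests of a member at high against low dose passed, 5 higher and 6 lower, and 15 did without the Zizyphi Fructus library. In Coptidis Rhizoma 3 of 4 tested members were called, where 56.2% of all tested genes were called as well, so that the count alone does not set the members apart. In Bupleuri Radix 3 of 4 were called, against 12.9% of all genes. Banhasasim-tang called 2 of 4, against 1.73%, Yijung-tang 2 of 4, against 0.206%, and Citri Unshius Pericarpium 1 of 4, against 0.144%. Cimicifugae Rhizoma, Aconiti Lateralis Radix Preparata and Zizyphi Fructus called 0 of 4 by edgeR and by DESeq2, against 0.874%, 2.71% and 0% of all genes by edgeR. At an unadjusted p under 0.05 they had 3, 1 and 0 members. Without the Zizyphi Fructus library, the share of all genes called was 63.8% in Coptidis Rhizoma, 22.7% in Bupleuri Radix and 3.84% in Banhasasim-tang. It was 1.01% in Yijung-tang, 1.42% in Citri Unshius Pericarpium, 2.32% in Cimicifugae Rhizoma, 6.2% in Aconiti Lateralis Radix Preparata and 0% in Zizyphi Fructus. At medium against low dose the calls were ADM2 in Coptidis Rhizoma, where 1.35% of genes passed, and GDF15 in Zizyphi Fructus, where 31.4% did with the library that stood apart and 0% without it. The other 6 extracts had 0 of 4 members at the medium dose by edgeR and by DESeq2, with 1 each in Citri Unshius Pericarpium and Banhasasim-tang at an unadjusted p under 0.05. There 0.025% of all genes passed in Banhasasim-tang, 0.00624% in Cimicifugae Rhizoma and 0% in the remaining 4 extracts.

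Mitochondrial shares differed between high and low dose in the extracts with the largest ADM2 changes, in opposite directions. They were 14.3 to 15.5% at the low, 9.20 to 9.63% at the medium and 3.66 to 3.86% at the high dose of Coptidis Rhizoma. In Banhasasim-tang the share was 7.81% at the low, 7.21% at the medium and 13.5% at the high dose. Mitochondrial rRNA took 9.79 to 10.5% of the counts at the low and 1.56 to 1.64% at the high dose of Coptidis Rhizoma and 10.2% at the high dose of Banhasasim-tang, against 1.07 to 1.15% in vehicle. Their part in the results was not tested. Total counts include the mitochondrial reads, so scaling by them cannot decide it. With that scaling, the high against low changes of ADM2, GDF15 and BDNF in Coptidis Rhizoma kept their sign and passed. Those of ADM2 and BDNF in Banhasasim-tang did so too.

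Set against vehicle, ADM2 was higher at the high dose of 4 extracts and GDF15 at that of 3. Vehicle libraries carry a library code of their own in the labels, so the extract and the code cannot be told apart in these comparisons. ADM2 was higher by 4.86 ± 0.15 in Coptidis Rhizoma, 2.66 ± 0.18 in Banhasasim-tang, 1.21 ± 0.16 in Bupleuri Radix and 0.73 ± 0.17 in Cimicifugae Rhizoma on the log2 scale (SE, adjusted p at most 0.0023). GDF15 was higher by 2.81 ± 0.16, 1.53 ± 0.15 and 0.83 ± 0.20 in Coptidis Rhizoma, Bupleuri Radix and Banhasasim-tang (SE, adjusted p at most 0.0065), against vehicle libraries at 44.9, 39.5 and 37.7 CPM. In Cimicifugae Rhizoma GDF15 had a log2 change of 0.41 ± 0.15 (SE, adjusted p = 0.052), which passed under 4 of 13 alternatives, DESeq2 among them, and had an adjusted p of 4.7e-06 without the Zizyphi Fructus library. In Citri Unshius Pericarpium it had -0.32 ± 0.15 (SE, adjusted p = 0.17), which passed under 3 of 13, with an adjusted p of 0.00056 without that library. The GDF15 value of Banhasasim-tang had an adjusted p of 0.19 with total counts, and the ADM2 value of Cimicifugae Rhizoma one of 0.060 without its high replicate 3.

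BDNF and BMP2 were lower than vehicle in 4 extracts each, and BDNF in 5 without the Zizyphi Fructus library. BDNF changed by -2.60 ± 0.31 in Banhasasim-tang, -2.59 ± 0.23 in Coptidis Rhizoma, -1.29 ± 0.20 in Yijung-tang and -1.17 ± 0.17 in Bupleuri Radix (SE, adjusted p at most 5.5e-05). In Aconiti Lateralis Radix Preparata BDNF had -0.40 ± 0.16 (SE, adjusted p = 0.072), with an adjusted p of 0.041 without that library. BMP2 changed by -0.51 ± 0.08 in Yijung-tang, -0.49 ± 0.07 in Citri Unshius Pericarpium, -0.48 ± 0.11 in Banhasasim-tang and -0.24 ± 0.07 in Cimicifugae Rhizoma (SE, adjusted p at most 0.019), where the vehicle libraries had 11.7, 11.8 and 11.8 CPM. The call of BMP2 in Cimicifugae Rhizoma was lost under 6 of 13 alternatives (adjusted p up to 0.30), among them leaving out vehicle replicate 1 and high replicates 1 and 2. That of BMP2 in Banhasasim-tang was lost under 3 of 10 (adjusted p up to 0.17), and both Yijung-tang calls were lost when the compared groups were fitted alone (adjusted p of 0.069 for BDNF and 0.074 for BMP2). All 4 tested members passed in Banhasasim-tang, against 7.6% of all genes, and 3 in Coptidis Rhizoma and in Bupleuri Radix, against 62.9% and 27%. Cimicifugae Rhizoma and Yijung-tang had 2 each, against 18% and 7.65%, and Citri Unshius Pericarpium 1, against 13.2%. Zizyphi Fructus and Aconiti Lateralis Radix Preparata had 0 by edgeR and DESeq2, against 6.9% and 17.3% of all genes by edgeR, and 0 and 1 at an unadjusted p under 0.05. These 8 comparisons share the vehicle libraries. Over the 32 tests of a member against vehicle, 15 passed, and 18 did without the Zizyphi Fructus library. Without it the share of all genes called was 18.9% in Banhasasim-tang, 69.5% in Coptidis Rhizoma, 40.2% in Bupleuri Radix, 32.9% in Cimicifugae Rhizoma, 22% in Yijung-tang, 29.1% in Citri Unshius Pericarpium, 21% in Zizyphi Fructus and 32.4% in Aconiti Lateralis Radix Preparata. Without vehicle replicate 1, the number of genes called was 448 in Citri Unshius Pericarpium, 928 in Cimicifugae Rhizoma and 2621 in Bupleuri Radix, against 2116, 2881 and 4331 with it.

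Extracts that share a library code were also compared with each other at the high dose. ADM2 differed in all 4 pairs. Its level was 48.2 ± 2.1 CPM with Coptidis Rhizoma (320 µg/mL) and 1.61 ± 0.24 CPM with Zizyphi Fructus (500 µg/mL), a log2 difference of 4.90 ± 0.18 (SE, adjusted p = 3.7e-25). It was 3.84 ± 0.41 CPM with Bupleuri Radix (310 µg/mL) and 1.48 ± 0.34 CPM with Aconiti Lateralis Radix Preparata (500 µg/mL), a difference of 1.39 ± 0.16 (SE, adjusted p = 1.6e-08). It was 10.5 CPM with Banhasasim-tang and 1.93 ± 0.19 CPM with Yijung-tang (500 µg/mL each), a difference of 2.45 ± 0.20 (SE, adjusted p = 8.1e-12). Cimicifugae Rhizoma and Citri Unshius Pericarpium, at 2.73 ± 0.52 and 1.70 ± 0.14 CPM (500 µg/mL each), differed by 0.69 ± 0.17 (SE, adjusted p = 0.033), a call lost under 9 of 13 alternatives with an adjusted p of up to 0.49. Levels of groups are means ± SD.

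GDF15 differed in 3 of these pairs, BDNF in 3 and BMP2 in none. GDF15 differed by 2.65 ± 0.19 between Coptidis Rhizoma and Zizyphi Fructus, 1.47 ± 0.15 between Bupleuri Radix and Aconiti Lateralis Radix Preparata and 0.73 ± 0.15 between Cimicifugae Rhizoma and Citri Unshius Pericarpium (SE, adjusted p at most 0.0054). The last of these was lost without Citri Unshius Pericarpium high replicate 2 and with total counts (adjusted p up to 0.26). Between Banhasasim-tang and Yijung-tang GDF15 differed by 0.69 ± 0.22 (SE, adjusted p = 0.12), and by 0.70 ± 0.09 (SE, adjusted p = 7.4e-07) without the Zizyphi Fructus library, and it also passed with no filter and with the compared groups alone. BDNF differed by -2.36 ± 0.25, -0.77 ± 0.18 and -1.31 ± 0.35 between Coptidis Rhizoma and Zizyphi Fructus, Bupleuri Radix and Aconiti Lateralis Radix Preparata, and Banhasasim-tang and Yijung-tang (SE, adjusted p of 1.4e-10, 0.0011 and 0.046). The last was lost under 4 of 9 alternatives, with an adjusted p of up to 0.61. BMP2 differed by between -0.01 and 0.25 (adjusted p of 0.15 or more), and 1 pair, Cimicifugae Rhizoma and Citri Unshius Pericarpium, had an unadjusted p under 0.05 (0.0022). Of all genes, 56.8%, 0.905%, 21.1% and 1.57% were called in the pairs led by Coptidis Rhizoma, Cimicifugae Rhizoma, Bupleuri Radix and Banhasasim-tang, where 3, 2, 3 and 2 of 4 members were.

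Receptors for several of these peptides were scarcely detected in HT29 cells. Of 20 receptor genes, 11 passed the filter. GFRAL, the GDF15 receptor, and RAMP3 had no counts in any library, its partner RET had 8 counts and the BDNF receptor NTRK2 had 3 counts over all 60 libraries. CALCRL, which ADM2 needs, had 29 counts, while its partner RAMP1 was at 2.78 ± 0.31 CPM in vehicle cells (SD, n = 3). The FGF21 co-receptor KLB was at 1.59 ± 0.32 CPM there. Of the FGF receptors, FGFR4 was at 113 ± 7, FGFR2 at 46.6 ± 1.4 and FGFR3 at 42.7 ± 1.5 CPM in vehicle cells. FGFR1, which did not pass the filter, was at 0.153 ± 0.088 CPM, with 168 counts over all 60 libraries. The BMP receptor BMPR2 was at 113 ± 10 CPM in vehicle cells.

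In Coptidis Rhizoma 4 of the 11 receptors rose and 4 fell at high against low dose, where 56.2% of all genes were called. Their median log2 change was -0.05, against -0.02 over all tested genes. The largest falls were of FGF receptors. FGFR4 had 23.9 CPM at the high and 93.8 CPM at the low dose, a log2 change of -1.97 ± 0.16 (SE, adjusted p = 8.9e-14), FGFR3 fell by 1.34 ± 0.18 and FGFR2 fell by 1.10 ± 0.06. In Bupleuri Radix, where 12.9% of all genes were called, 1 receptor rose and 2 fell, or 5 fell without the Zizyphi Fructus library. RAMP1 fell by 1.23 ± 0.22 (SE, adjusted p = 4.9e-05), BMPR2 fell by 0.30 ± 0.08 and ACVR1 rose by 0.26 ± 0.05. FGFR2 fell in Banhasasim-tang by 0.46 ± 0.08 and in Cimicifugae Rhizoma by 0.17 ± 0.04.

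Of 10 tested peptides related to the members, 3 rose and 1 fell in Coptidis Rhizoma, against 56.2% of all genes called, with a median of 0.05, against -0.02 over all genes, and 3 fell without the Zizyphi Fructus library. INHBE, the activin E subunit of the TGF-beta family, had 5.85 ± 0.10 CPM at the high and 0.184 ± 0.071 CPM at the low dose, a log2 change of 4.93 ± 0.45 (SE, adjusted p = 2.4e-12). Its group means in vehicle and at the low and high doses of the other extracts were at most 0.315 CPM, under the 0.5 CPM filter. INHBE may thus have been tested only because it was high with Coptidis Rhizoma, so its call there is not independent of the filter. STC1, the paralog of STC2, had 0 counts at the high and 28 at the low dose (adjusted p = 1.0e-05). Its pooled low-dose level was 8.99-fold a floor of 3 counts over the high-dose group. ADM, the founding member of the adrenomedullin pair, had 6.08 and 3.05 CPM at the high and low dose, a log2 change of 0.99 ± 0.18. In Bupleuri Radix STC1 fell to 8 counts at the high dose, against 36 at the low dose (adjusted p = 0.0082). FGF19, a gut hormone of the FGF21 subfamily, rose by 0.49 ± 0.10 in Bupleuri Radix and by 0.71 ± 0.17 in Banhasasim-tang (SE, adjusted p of 0.00025 and 0.012).

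Of 8 tested BMP inhibitors and response genes, 3 rose and 2 fell in Coptidis Rhizoma, where 56.2% of all genes were called, with a median of 0.24, against -0.02 over all genes. ATOH8 had 0.100 CPM at the high and 0.838 CPM at the low dose (log2 change -3.01 ± 0.48), ID2 fell by 1.27 ± 0.09 and SMAD6, an inhibitor of the pathway, rose by 1.16 ± 0.07 (SE, adjusted p at most 1.1e-06). In Bupleuri Radix ID2 fell by 0.61 ± 0.07 and ATOH8 fell by 0.97 ± 0.32, and ID2 fell by 0.24 ± 0.07 in Aconiti Lateralis Radix Preparata. Of 6 tested processing and binding partners, 1 rose and 4 fell in Coptidis Rhizoma (median -0.22). PAM, which amidates peptide ends, fell by 0.99 ± 0.07 and PCSK5 fell by 0.74 ± 0.09, while the proprotein convertase FURIN rose by 0.80 ± 0.11. PAM fell by 0.26 ± 0.06 in Bupleuri Radix, where PCSK5 rose by 0.47 ± 0.07, and PCSK5 and PCSK6 fell by 0.32 ± 0.07 and 0.22 ± 0.06 in Aconiti Lateralis Radix Preparata.

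Genes of the ATF4 and CHOP axis were mostly higher in the extracts in which ADM2 rose. All 22 were tested. In Coptidis Rhizoma 20 rose and none fell at high against low dose, with a median log2 change of 2.15, against -0.02 over all genes, led by DDIT3, which encodes CHOP (96.2 and 6.56 CPM at the high and low dose, 3.87 ± 0.13), ATF3 (3.82 ± 0.16) and CHAC1 (3.73 ± 0.17). In Banhasasim-tang 15 rose and none fell, with a median of 0.77, led by CHAC1 (2.82 ± 0.25), NUPR1 (2.19 ± 0.54) and DDIT4 (2.10 ± 0.17). In Bupleuri Radix 13 rose and none fell, with a median of 0.41, led by ATF3 (1.39 ± 0.14), CHAC1 (1.35 ± 0.16) and DDIT3 (1.21 ± 0.11). In Cimicifugae Rhizoma 5 rose, led by SLC7A11 (0.80 ± 0.07), CHAC1 (0.78 ± 0.17) and ASNS (0.46 ± 0.05), and in Citri Unshius Pericarpium 1 rose, the chaperone HSPA5 (0.24 ± 0.04). Their medians were 0.21 and -0.03. Without the Zizyphi Fructus library that stood apart, 20, 15, 14, 8 and 1 rose in Coptidis Rhizoma, Banhasasim-tang, Bupleuri Radix, Cimicifugae Rhizoma and Citri Unshius Pericarpium, and 1 fell in Banhasasim-tang, in Bupleuri Radix and in Citri Unshius Pericarpium. In the same setting 2 fell in Aconiti Lateralis Radix Preparata, and 1 rose and 1 fell in Yijung-tang. With all 60 libraries in the fit, 27.8% of all tested genes rose in Coptidis Rhizoma, 1.04% in Banhasasim-tang and 6.34% in Bupleuri Radix. In Cimicifugae Rhizoma 0.437% rose and in Citri Unshius Pericarpium 0.0187%. The shares called in either direction, in that order of extracts, were 56.2, 1.73, 12.9, 0.874 and 0.144%. Without the Zizyphi Fructus library they were 63.8, 3.84, 22.7, 2.32 and 1.42%. The changes given for this list are log2 values ± SE. The list was drawn up with earlier results of these data known, so its direction is not independent evidence.

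Of 14 p53 targets, 9 rose and 4 fell in Coptidis Rhizoma (median 0.28), where 56.2% of all genes were called and 27.8% rose, with CDKN1A higher by 2.65 ± 0.09, BBC3 higher by 1.53 ± 0.18 and BTG2 lower by 2.12 ± 0.14 on the log2 scale. In Bupleuri Radix, where 12.9% of all genes were called, 2 rose and 3 fell, with a median of -0.08, with CDKN1A higher by 0.81 ± 0.07, PLK3 higher by 0.60 ± 0.09 and BTG2 lower by 0.70 ± 0.11. Of 8 tested activity-linked transcription factors, which include regulators that act on BDNF in neurons, 7 rose in Coptidis Rhizoma, with a median of 0.76, led by KLF4 (2.60 ± 0.10), EGR1 (1.79 ± 0.27) and CREM (1.20 ± 0.12). In Bupleuri Radix 3 rose, FOSL1 (1.02 ± 0.22), JUN (0.47 ± 0.05) and KLF4 (0.45 ± 0.08), and in Banhasasim-tang NR4A1 did (0.68 ± 0.15).

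Across the 25 groups the members did not share 1 pattern. ADM2 and GDF15 had a Pearson correlation of 0.78 between their mean log2 CPM, and 0.58 over the 22 groups without Coptidis Rhizoma. ADM2 and BDNF ran opposite, with -0.81 over all groups and -0.82 without Coptidis Rhizoma. Among those 22 groups the single high-dose Banhasasim-tang library lay apart, at a log2 CPM of 3.41 for ADM2 and -0.66 for BDNF. The correlation without that library was not computed. BDNF and BMP2 had 0.49, and GDF15 and BMP2 had -0.03. These are descriptions over group means, and groups of 1 extract share that extract and its library code. The Zizyphi Fructus library that stood apart was kept in its group mean.

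The genes most like each member were found by the same measure. For GDF15 they were RDH10 (0.97), TXNRD1 (0.97) and IGSF3 (0.97), and RDH10 kept 0.94 over the 22 groups without Coptidis Rhizoma. The medium dose of Zizyphi Fructus, which holds the library that stood apart, had the lowest mean log2 CPM of GDF15 (4.41) and of RDH10 (4.98). These correlations were not computed without that library. For ADM2 they were ASNS (0.99, and 0.94 without Coptidis Rhizoma), PSAT1 (0.98) and CARS1 (0.97). ASNS had 755 CPM at the high dose of Coptidis Rhizoma and 59.9 CPM in vehicle cells. For BDNF they were KCNJ3 (0.92), ARSJ (0.91) and SLC5A1 (0.90), and for BMP2, whose pattern was the least shared, PGM2L1 (0.72), SWSAP1 (0.72) and SYTL2 (0.67).

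**Figure D4:**
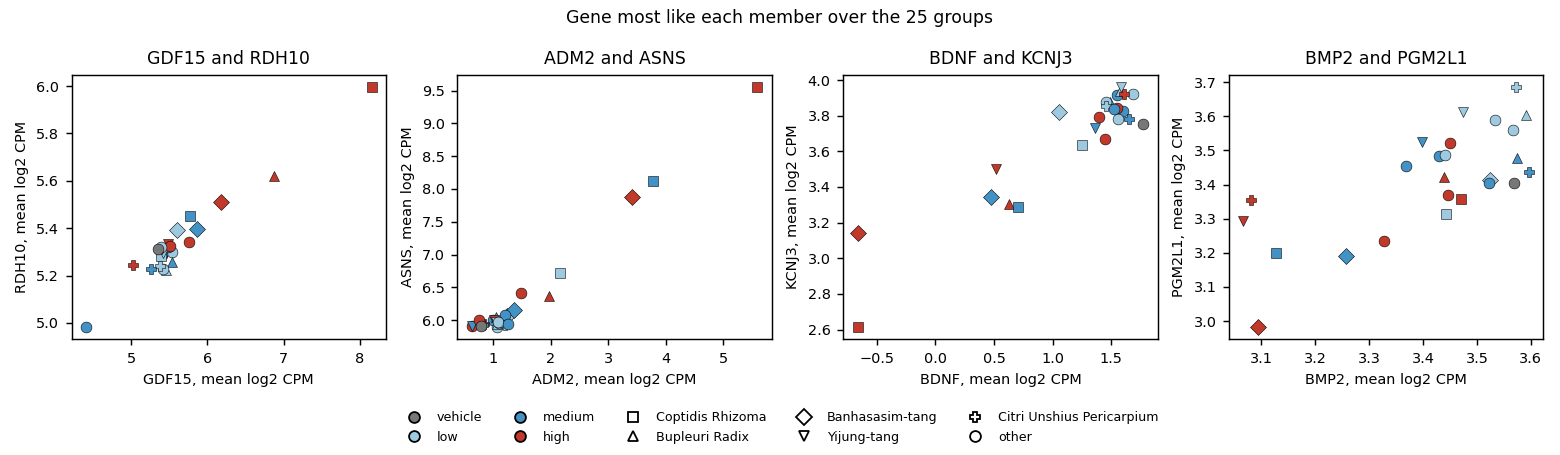
Mean log2 CPM of the gene most like each member (vertical axis) against that of the member (horizontal axis) over 25 groups. The panels pair GDF15 with RDH10, ADM2 with ASNS, BDNF with KCNJ3 and BMP2 with PGM2L1. Colour gives the dose, with vehicle in grey. Coptidis Rhizoma, Bupleuri Radix, Banhasasim-tang, Yijung-tang and Citri Unshius Pericarpium each have a marker shape, and circles stand for vehicle and the other extracts. High-dose Coptidis Rhizoma lies at the end of the GDF15, ADM2 and BDNF panels, and the correlations are 0.97, 0.99, 0.92 and 0.72.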

How the data were processed

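RNA from HT29 cells was sequenced as 100-base paired reads of strand-marked mRNA libraries, per the labels' protocols. Per the submitters' processing notes, the tools were RSEM 1.3.3, STAR 2.7.3a, Trim Galore 0.6.5 and FastQC 0.11.9. The authors deposited unscaled expected counts of genes, of which 91% of the values used were whole; all were rounded, which changed a library total by at most 0.00022%. Another 210 of 270 columns belong to samples not analysed here. The gene annotation of the counting was not given in the sources used here, and the reference table held a symbol for 93.2% of the IDs.

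A gene was tested where 3 or more libraries reached 0.5 CPM. The quasi-likelihood test of edgeR 4.0.16 (R 4.3.3), after TMM scaling, took 1 mean per group over the 25 groups and all 60 libraries together (35 residual degrees of freedom, common dispersion 0.00613). P-values were adjusted by Benjamini and Hochberg over 16022 genes within each comparison, with a threshold of 0.05. SE is the log2 change over the square root of F. High and medium were compared with low dose, high dose with vehicle, and extracts sharing a library code with each other. Tests of the difference between extracts in their dose effect were added after the data were seen. Alternatives were DESeq2 1.42.0, its size factors, total counts, no filter, a replicate block, the compared groups alone, and each library left out. The method was tested on simulated data.

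The members and gene lists were chosen with earlier results of these data known. All members are named, with the 3 genes most like each tested member (log2 CPM with a prior count of 2, Pearson correlation, mean log2 CPM of at least 1) and up to 3 genes per list and extract with the largest change past the threshold. Poisson intervals and floors of 3 counts cover counting error only.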

Additional observations from a re-analysis of the deposited data

Results flagged for a closer look

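The high against low dose effects of extracts that share a library code were compared by an interaction term in edgeR, with adjustment over all tested genes, and 6 differences between extracts passed. For Coptidis Rhizoma against Zizyphi Fructus, the log2 dose effect was larger by 3.79 ± 0.27 for ADM2 (SE, adjusted p = 3.3e-15) and by 2.65 ± 0.26 for GDF15 (SE, adjusted p = 4.3e-11), and for BDNF the difference was -2.05 ± 0.33 (SE, adjusted p = 2.1e-06). The ADM2 effect was 3.45 in Coptidis Rhizoma, against -0.34 in Zizyphi Fructus. In that pair 42.9% of all genes passed.

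For Bupleuri Radix against Aconiti Lateralis Radix Preparata, the difference was 1.54 ± 0.21 for GDF15 (SE, adjusted p = 1.8e-06) and 1.39 ± 0.24 for ADM2 (SE, adjusted p = 8.2e-05), where 8.52% of all genes passed. The BDNF effects there, -0.97 and -0.30, differed by -0.66 ± 0.24 (SE, adjusted p = 0.080). For Banhasasim-tang against Yijung-tang, the ADM2 difference was 2.25 ± 0.32 (SE, adjusted p = 3.1e-05), with 0.462% of all genes past the threshold and 1 Banhasasim-tang library per dose. The GDF15 and BDNF effects in that pair differed by 0.51 ± 0.32 and -0.77 ± 0.44 (SE), and neither passed. For Cimicifugae Rhizoma against Citri Unshius Pericarpium no member passed, where 0.2% of all genes did. The ADM2 difference there was 0.80 ± 0.24 (SE, adjusted p = 0.33). BMP2 passed in none of the pairs. Doses differ within the pairs led by Coptidis Rhizoma and Bupleuri Radix.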

How the results depend on the processing

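The calls of GDF15, ADM2 and BDNF in Coptidis Rhizoma and Bupleuri Radix held under every alternative run, at high against low dose, against vehicle and within pairs, as did those of ADM2 in Banhasasim-tang, and no called value of a member changed sign. Counts of called members moved in other comparisons; the cause was not tested except where fewer libraries or genes enter. At high against low dose, Citri Unshius Pericarpium had 0 with total counts, 2 with no filter, 2 with the compared groups alone and 1 to 2 with a library left out. Cimicifugae Rhizoma had 1 with no filter, 1 with the compared groups alone and 0 to 1 with a library left out. Yijung-tang had 1 with total counts, 1 with no filter and 0 to 2 with a library left out. Banhasasim-tang had 4 without the Zizyphi Fructus library, where 3.84% of all genes were called. At medium against low dose, Coptidis Rhizoma had 2 with no filter, 2 with the compared groups alone and 1 to 3 with a library left out, and Zizyphi Fructus had 2 with total counts, 0 with the compared groups alone and 0 to 1 with a library left out. Against vehicle, Citri Unshius Pericarpium had 2 with no filter, 2 with the compared groups alone and 1 to 2 with a library left out. Cimicifugae Rhizoma had 1 with total counts and 1 to 3 with a library left out, Aconiti Lateralis Radix Preparata 0 to 1 with a library left out, Yijung-tang 1 by DESeq2 and 0 with the compared groups alone, and Banhasasim-tang 2 with total counts. Between Cimicifugae Rhizoma and Citri Unshius Pericarpium there were 0 with total counts, 1 with no filter, 1 with the compared groups alone, 1 with the replicate block and 0 to 2 with a library left out. Between Banhasasim-tang and Yijung-tang there were 1 with the replicate block, 1 by DESeq2 and 1 to 3 with a library left out. With total counts the mean level of GDF15 was 291 CPM in high-dose Coptidis Rhizoma and 68.0 CPM in high-dose Banhasasim-tang, and that of BMP2 was 11.6 CPM in vehicle.

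Same-numbered replicates did not pair the libraries: their deviations had correlations of -0.092 to 0.13. The replicate block moved the count of all genes called by over 1.5 times in 1 comparison, high against low Citri Unshius Pericarpium (37, against 23). Counts of all genes at high against low dose depended on other settings too. Over the settings that moved them by over 1.5 times, they ran from 7 to 227 for Citri Unshius Pericarpium (23 in the fit reported), 53 to 372 for Cimicifugae Rhizoma (140), 3631 to 3704 for Bupleuri Radix (2071), 215 to 1127 for Aconiti Lateralis Radix Preparata (434), 6 to 412 for Yijung-tang (33), 162 to 615 for Banhasasim-tang (277) and 7 to 44 for Zizyphi Fructus (0). Against vehicle they ran from 122 to 3023 for Banhasasim-tang (1218), 29 to 3517 for Yijung-tang (1225), 12 to 3360 for Zizyphi Fructus (1106), 448 to 4659 for Citri Unshius Pericarpium (2116), 928 to 5266 for Cimicifugae Rhizoma (2881), 1256 to 5190 for Aconiti Lateralis Radix Preparata (2774) and 2621 to 2633 for Bupleuri Radix (4331). Total counts shifted the median log2 change of all genes at high against low dose to 0.11 in Coptidis Rhizoma and -0.11 in Banhasasim-tang, with 4960 genes higher and 3012 lower (4449 and 4552 with TMM) and 46 higher and 116 lower (166 and 111 with TMM). BDNF, FGF21 and STC2 are limited by depth, and Banhasasim-tang by its single libraries.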
